A study of Homo sapiens with 5 samples.

Results

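The nuclear-encoded subunits of the respiratory chain and ATP synthase were taken from the gene table by symbol alone. A row was a member when its symbol began with NDUFA, NDUFB, NDUFC, NDUFS or NDUFV and a digit, was SDHA, SDHB, SDHC or SDHD, or began with UQCR, with COX4 to COX8 or with ATP5. Of 25382 genes, 92 met this rule, and 80 of them were among the 13297 genes with enough reads to be tested. Textbook roles assigned 74 of the 92 to a complex as ordinary subunits, and all 74 of these were tested. They comprised 36 subunits of complex I, 4 of complex II, 8 of complex III, 11 of complex IV and 15 of complex V, with NDUFA4 counted in complex IV, where it is now placed. The other 18 rows were 7 tissue or inducible isoforms, 4 gene copies, 3 factors that are not subunits, 2 antisense rows and 2 read-through rows.

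The cells were MDA-MB-231, an established line from a human breast cancer that lacks hormone receptors and HER2 amplification, grown as a mixed population; shear separated cells that detach readily (weakly adherent) from those that hold on (strongly adherent). RNA was sequenced from 3 weakly adherent samples, dated 6, 12 and 15 March in their titles, and from 2 strongly adherent samples, dated 6 and 15 March. No genotype, drug or treatment beyond the shear separation is named in the labels, and both populations came from 1 cell line. The shear that defined the groups was also applied to the cells, so a response to it and a difference present beforehand cannot be told apart. The labels do not say whether samples came from separate cultures or what happened on each date, so the p-values speak of the spread among these 5 libraries, part of which may be technical.

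Gene-assigned reads ran from 19630386 to 21707459 per library. Line identity was checked with 11 genes. VIM, which encodes the mesenchymal filament protein vimentin, had 2458 to 2621 CPM (the unit of all levels here: read counts scaled to library size with TMM) in weakly adherent cells and 2652 to 2746 CPM in strongly adherent cells, and CD44, FN1, LGALS1 and EGFR were also high, at 227 CPM or more in every library. Of the 6 genes taken as low markers, ESR1 and PGR had 0 reads in all 5 libraries and CDH1 had 1.18 to 1.57 CPM in weakly adherent cells and 1.27 to 2.07 CPM in strongly adherent cells. The other 3 were detected: ERBB2, which encodes HER2, at 85.4 to 86.6 and 82.8 to 93.9 CPM in weakly and strongly adherent cells, EPCAM at 21.4 to 25.8 and 19.4 to 21.2 CPM, and GATA3 at 12.4 to 12.7 and 13.45 to 14.03 CPM.

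The respiratory chain moves electrons from NADH (complex I) and succinate (complex II) through ubiquinone to complex III and by cytochrome c to complex IV, which reduces oxygen. Proton pumping along the way drives complex V, the ATP synthase. Most subunits classed as core here carry the redox centres or the rotary catalysis, whereas accessory subunits surround them and serve assembly and stability. The core class also holds UQCRC1 and UQCRC2 of complex III, which are called core proteins by name and are not catalytic subunits. The complexes other than complex II also contain subunits translated inside the organelle from mitochondrial DNA, so the nuclear genes described here supply only part of each enzyme. Many cancer cells, this line included, take much of their energy from glycolysis while keeping a working respiratory chain.

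Nuclear respiratory chain RNA differed little between the populations. With edgeR's quasi-likelihood test and Benjamini-Hochberg adjustment over all genes tested, 1 of the 80 tested members was higher in weakly adherent cells, COX7A2, and 0 were lower. Over all genes tested, 1.77% were called higher and 0.918% lower. Both limma-voom and DESeq2's Wald test also called 1 member higher, COX7A2, and 0 lower. At an unadjusted p under 0.05, 5 members were higher and 0 were lower, where 7.86% of all genes were higher and 6.35% were lower. The median log2 fold change (weakly minus strongly adherent) of the members was 0.035, against -0.0005 for all genes tested, and 58 of 80 values were above 0. Their log2 fold changes ran from -0.18 for ATP5E to 0.32 for COX7A2. In 79 of the 80 members (98.8%) the log2 fold change was smaller than 0.25 in size, against 79.5% of all genes tested. The share was also high, 92.3% to 100%, in the related gene lists described below, so it is not particular to the members. In bulk RNA, fewer cells of a type and less RNA per cell cannot be told apart.

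These libraries could bound most subunits closely. A 95% interval from limma-voom lay inside ±0.5 on the log2 scale for 71 of the 74 subunits, and the 3 exceptions were NDUFC2, NDUFA5 and ATP5E. NDUFC2 and NDUFA5 differed strongly between dates, and ATP5E was counted at under 5 CPM. The members together made up 0.75% to 0.78% of the gene counts of a library. Summed over the 92 rows, the level was 7905, 7809 and 7511 CPM in weakly adherent cells of 6, 12 and 15 March and 7758 and 7392 CPM in strongly adherent cells of 6 and 15 March. The libraries of both populations overlapped, and the ratio of means was 1.02, with 1.02 for the pair of 6 March and 1.02 for the pair of 15 March.

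**Figure D1:**
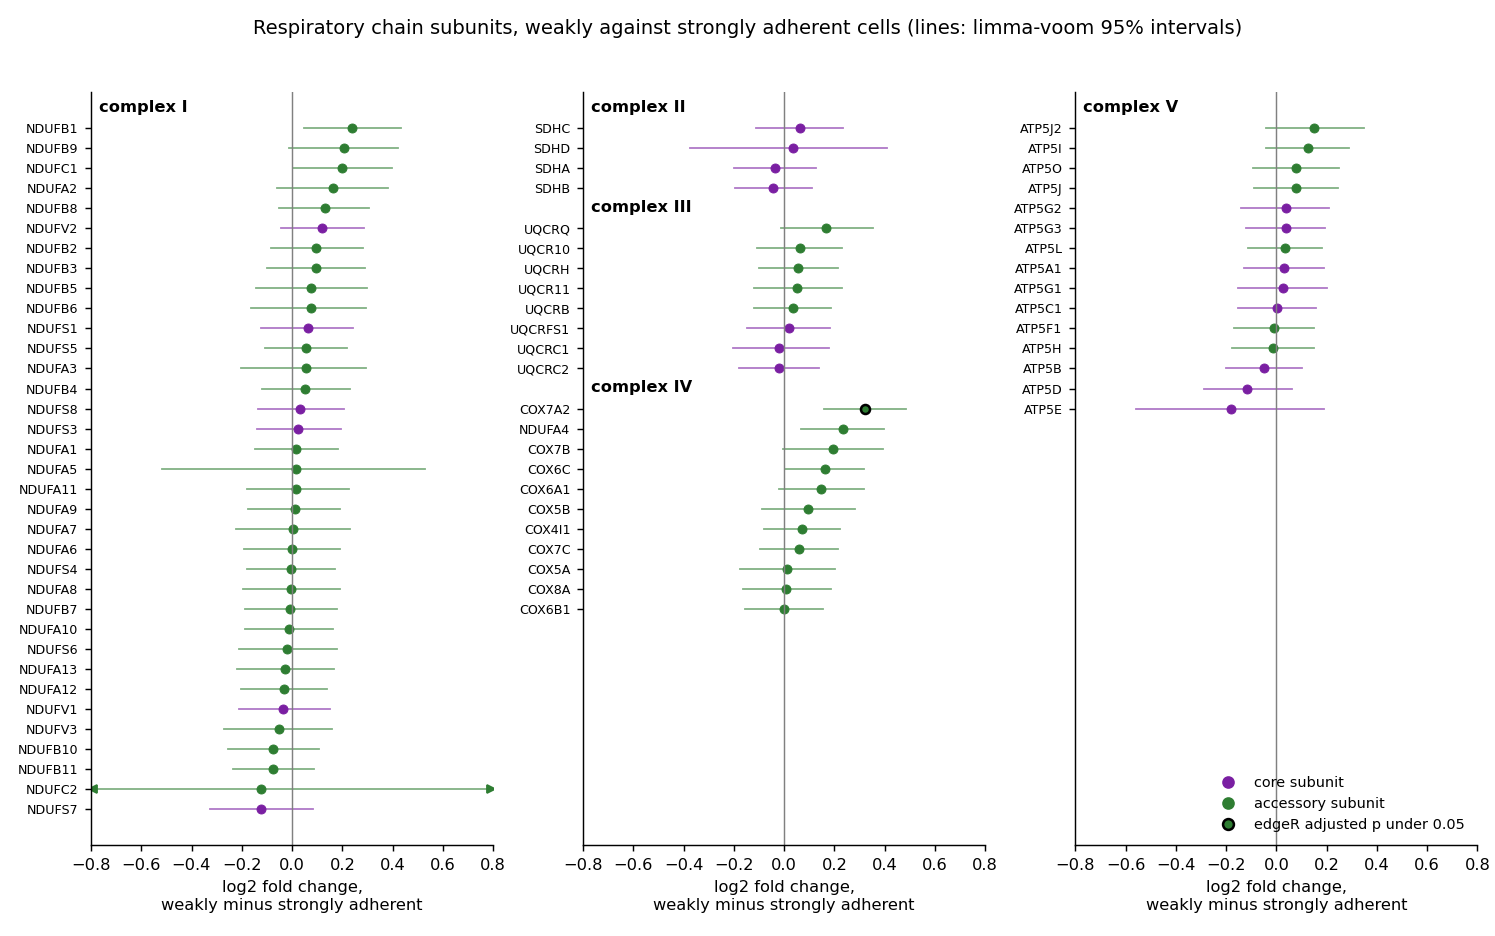
Log2 fold change of individual subunits, weakly minus strongly adherent cells, from edgeR (points) with limma-voom 95% intervals (lines), by complex; purple marks core and green accessory subunits, arrowheads mark intervals that leave the axis, and a black ring marks an adjusted p under 0.05. Most points lie within 0.25 of 0, all 11 points of complex IV lie at or right of 0, and only COX7A2 carries a ring.

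The promoters of this gene family are known for sites of NRF1 (nuclear respiratory factor 1), of ETS-family factors such as GABP, and of YY1, and 62 of the 74 subunits matched a RefSeq promoter (GRCh38.p14, 250 bases before to 50 after the start). Both strands were searched. The full NRF1 palindrome GCGCATGCGC was found in 4 of 62 (6.45%), in ATP5C1, NDUFA8, NDUFB4 and SDHD, against 1.81% of 15216 promoters. Its 8-letter part GCATGCGC, which the palindrome also contains, was in 14 (22.6% against 4.38%). The ETS core CCGGAAG was in 20 (32.3% against 14.7%) and the YY1 motif AAGATGGC in 12 (19.4% against 4.02%). CCAAT was found in 32.3% against 36.7%, GGGCGG in 59.7% against 60.8% and TATAAA in 9.68% against 9.57%. A match to letters is a description of the sequence and not evidence of binding. The 150 bases before the start are shown for the one called member, COX7A2 (chr6:75243802-75243951, minus strand), for SDHD (chr11:112086723-112086872, plus strand), whose level differed between dates, and for ATP5C1 (chr10:7788027-7788176, plus strand), whose log2 fold change between populations was 0.0019. Capitals mark the NRF1 palindrome or its 8-letter part, the ETS core and the YY1 motif, and the COX7A2 stretch holds none of them.
COX7A2: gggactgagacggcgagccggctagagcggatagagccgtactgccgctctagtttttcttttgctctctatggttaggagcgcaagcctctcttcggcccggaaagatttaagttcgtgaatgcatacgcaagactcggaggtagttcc
SDHD: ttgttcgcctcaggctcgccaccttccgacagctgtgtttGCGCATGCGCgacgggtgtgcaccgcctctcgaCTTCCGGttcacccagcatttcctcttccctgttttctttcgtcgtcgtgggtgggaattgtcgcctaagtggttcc
ATP5C1: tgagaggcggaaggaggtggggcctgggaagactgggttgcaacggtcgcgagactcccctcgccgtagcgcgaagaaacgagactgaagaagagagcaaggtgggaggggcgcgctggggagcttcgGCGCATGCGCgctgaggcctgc

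Complex IV, cytochrome c oxidase, held the one called member. All 11 of its nuclear subunits had a log2 fold change above 0, where 49.8% of all genes tested did. Their median was 0.095, and the smallest was COX6B1 at 0.0002. All 11 are classed as accessory, with a median coding length of 258 bases. Complex, role and coding length therefore cannot be told apart here. Summed, the complex reached 1301, 1293 and 1254 CPM in weakly adherent cells and 1234 and 1157 CPM in strongly adherent cells. Here the 3 weakly adherent libraries lay above both strongly adherent ones, narrowly, with 1254 CPM for the lowest against 1234 CPM. The sum includes COX7A2 and NDUFA4, described below, which had the largest log2 fold changes of the complex. The ratio of means was 1.07, 1.05 for the pair of 6 March and 1.08 for the pair of 15 March.

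COX7A2 encodes the widely expressed form of subunit VIIa, a small accessory protein that spans the inner membrane. It had 132, 129 and 126 CPM in weakly adherent cells and 109 and 98.2 CPM in strongly adherent cells, so the populations did not overlap. COX7A2 rose 1.25-fold (edgeR adjusted p = 0.044), which is 0.32 on the log2 scale with an SE of 0.075. The log2 difference was 0.28 within 6 March and 0.36 within 15 March. Its call is close to the threshold: without any one library the adjusted p lay between 0.074 and 0.337, at log2 fold changes of 0.25 to 0.40. The adjusted p was 0.058 with upper-quartile scaling (log2 fold change 0.30) and 0.081 once each library's trend with coding length was removed (log2 fold change 0.31). With the date as a block it was 5.9e-05, at a log2 fold change of 0.32. Only 0.338% of the 50-base stretches of its coding sequence occur in another annotated gene (GENCODE release 29); untranslated parts were not examined.

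NDUFA4, first described in complex I and now counted as an accessory subunit of cytochrome c oxidase, came next. It had 98.7, 105 and 95.6 CPM in weakly adherent cells and 86.6 and 83.2 CPM in strongly adherent cells, again with no overlap. Its log2 fold change was 0.23 (SE 0.076, edgeR adjusted p = 0.15). With the date block the log2 fold change was 0.20 at an adjusted p of 0.043, and with the block and the length trend removed together it was 0.18 at an adjusted p of 0.11. Of its coding 50-base stretches 34.5% occur in other annotated genes, so its counts are uncertain.

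Both COX6C, an accessory subunit, and COX7B, another, were named after their values were seen. COX6C had 90.5, 87.4 and 88.6 CPM in weakly adherent cells against 81.2 and 77.6 CPM in strongly adherent cells, a log2 fold change of 0.16 (edgeR adjusted p = 0.34). COX7B had 91.6, 101 and 83.3 CPM in weakly adherent cells against 76.1 and 84.3 CPM in strongly adherent cells, so 1 strongly adherent library lay above the lowest weakly adherent one (log2 fold change 0.20, edgeR adjusted p = 0.36). COX6A1, which had the lowest counts of the complex, was 70.3, 67.8 and 71.2 CPM in weakly adherent cells and 65.8 and 60.4 CPM in strongly adherent cells (log2 fold change 0.15, edgeR adjusted p = 0.46). Of its coding 50-base stretches 64.0% occur in other annotated genes, so its counts are uncertain. None of these 3 passed the test.

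Other complex IV subunits lay nearer 0. COX4I1, the common isoform of the regulatory subunit IV, averaged 137 ± 0.70 CPM in weakly adherent cells and 131 ± 5.2 CPM in strongly adherent cells (SD, n = 3 and n = 2), a log2 fold change of 0.070 (edgeR adjusted p = 0.77). COX5A and COX5B, which face the matrix, had log2 fold changes of 0.013 and 0.095 (edgeR adjusted p = 0.98 and 0.74). COX8A, with the most reads of the complex, had 239, 239.5 and 237 CPM in weakly adherent cells and 257 and 217 CPM in strongly adherent cells, so the strongly adherent libraries lay on both sides.

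**Figure D2:**
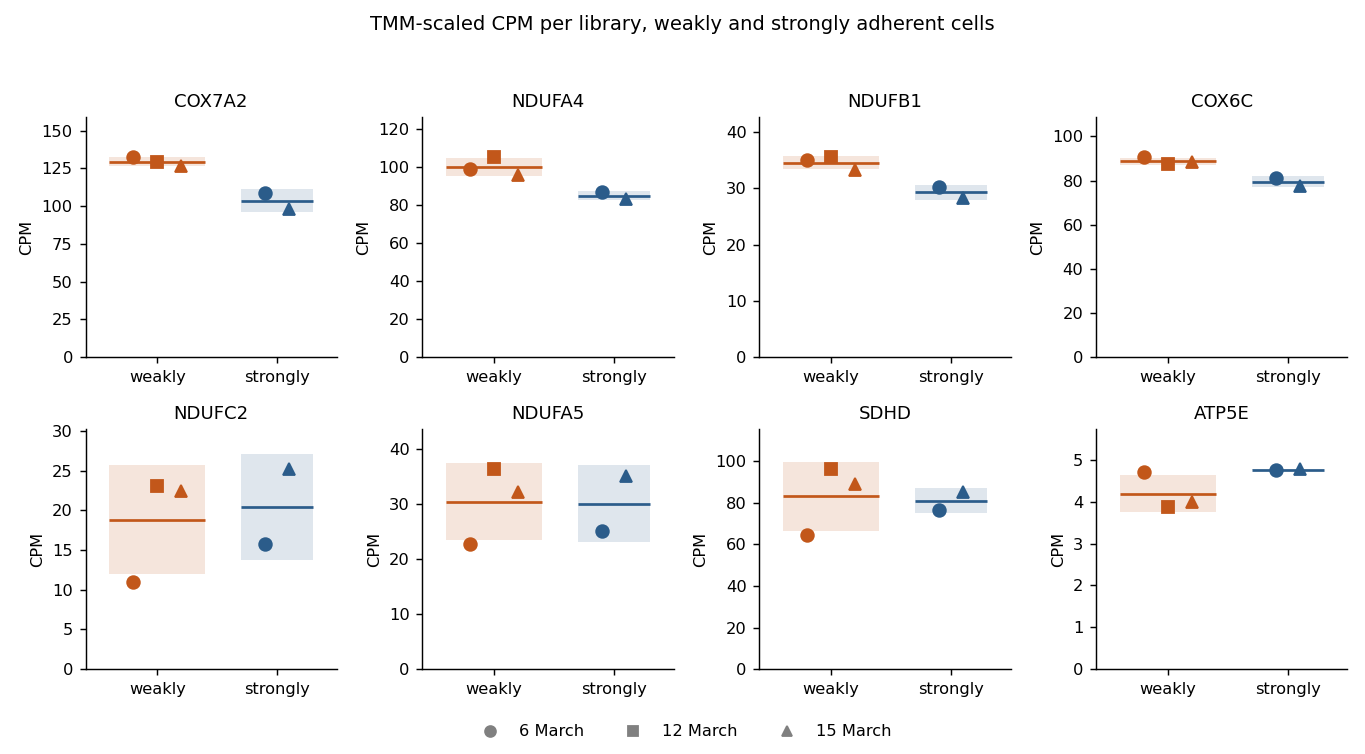
TMM-scaled CPM of 8 members in each library, weakly adherent left and strongly adherent right in every panel, with symbols for the date, a line at the mean and a band of 1 SD. COX7A2, NDUFA4, NDUFB1 and COX6C do not overlap between populations; NDUFC2, NDUFA5 and SDHD are lowest on 6 March in both; ATP5E is near 4 to 5 CPM throughout.

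Isoforms that replace the common complex IV subunits in particular tissues or conditions were at or near 0. COX4I2, a lung and hypoxia-related form of subunit IV, the muscle forms COX6A2 and COX7A1, and the testis form COX8C had 0 reads in all 5 libraries. A count of 0 allows at most 3 reads, or 0.136 to 0.153 CPM per library, counting error only. NDUFA4L2, the hypoxia-inducible relative of NDUFA4, had 0, 1 and 2 reads in weakly adherent cells and 2 and 2 in strongly adherent cells. COX6B2, the testis form of subunit VIb, had 2, 2 and 0 reads in weakly adherent cells and 5 and 3 in strongly adherent cells, and COX7B2 had at most 3 in any library. These forms were too rare here to compare.

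The remaining rows that are not ordinary subunits gave no call either. The read-through rows NDUFC2-KCTD14 and ATP5J2-PTCD1 had 0 reads, the copies ATP5L2 and UQCRBP1 at most 3 in any library, and the antisense row NDUFA6-AS1 3 to 9. NDUFB2-AS1, antisense to NDUFB2, had 25 to 31 reads and a log2 fold change of 0.061 (edgeR adjusted p = 0.97). COX7A2L, a factor of respiratory supercomplexes and a relative of COX7A2, had 81.0, 79.5 and 83.1 CPM in weakly adherent cells and 77.4 and 83.3 CPM in strongly adherent cells. The libraries overlapped, at a log2 fold change of 0.015 (edgeR adjusted p = 0.97). ATP5SL and ATP5S, which are not subunits despite their names, were at 0.092 and 0.047 (edgeR adjusted p = 0.73 and 0.94).

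Complex I, NADH dehydrogenase, ran from -0.13 for NDUFS7 to 0.24 for NDUFB1 in log2 fold change. None of its 36 subunits was called by edgeR, limma-voom or DESeq2; 2 of them, NDUFB1 and NDUFC1, were higher at an unadjusted p under 0.05 and 0 were lower. Its median log2 fold change was 0.017, with 23 of 36 above 0. Summed CPM was 2182, 2156 and 2074 in weakly adherent cells and 2150 and 2045 in strongly adherent cells, with overlap between them.

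The core subunits that hold the flavin and iron-sulfur clusters lay on both sides of 0. NDUFV1, which binds NADH and the flavin, had 138, 133 and 134.5 CPM in weakly adherent cells and 151 and 126 CPM in strongly adherent cells, a log2 fold change of -0.037 (edgeR adjusted p = 0.92). NDUFS1, the largest iron-sulfur subunit, had a log2 fold change of 0.063 (edgeR adjusted p = 0.85). NDUFV2, an iron-sulfur subunit named after its values were seen, had 80.6, 77.8 and 75.5 CPM in weakly adherent cells and 73.8 and 69.6 CPM in strongly adherent cells. Its libraries did not overlap, at a log2 fold change of 0.12 (edgeR adjusted p = 0.56), and 33.1% of its coding 50-base stretches occur in other annotated genes. NDUFS7, which carries the last cluster before the quinone, had the lowest value of the 36 subunits, -0.13 (SE 0.094, edgeR adjusted p = 0.66). It had 37.3, 35.7 and 34.2 CPM in weakly adherent cells and 41.9 and 36.1 CPM in strongly adherent cells, so the libraries overlapped.

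Accessory subunits of the membrane arm were spread more widely, with 13 of 20 above 0 and a median of 0.053. NDUFB1, a small single-span subunit, had 35.0, 35.5 and 33.3 CPM in weakly adherent cells and 30.3 and 28.3 CPM in strongly adherent cells. The libraries did not overlap, and the log2 fold change was 0.24 (SE 0.090, edgeR adjusted p = 0.22). NDUFC1 had 26.6, 27.6 and 27.3 CPM in weakly adherent cells and 23.6 and 23.7 CPM in strongly adherent cells, a log2 fold change of 0.20 (edgeR adjusted p = 0.34). NDUFB9, named after its values were seen, had a log2 fold change of 0.21 (edgeR adjusted p = 0.38) and did not overlap either. At the other end, NDUFB11 had 76.4, 78.3 and 75.3 CPM in weakly adherent cells and 82.9 and 78.5 CPM in strongly adherent cells, below both but by a log2 fold change of only -0.074 (edgeR adjusted p = 0.77).

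The 9 accessory subunits of the matrix arm had a median of 0.001, with 5 of 9 above 0. NDUFA2, a thioredoxin-fold subunit named after its values were seen, was the highest of these, with 43.2, 36.0 and 37.6 CPM in weakly adherent cells and 36.7 and 32.9 CPM in strongly adherent cells. Its libraries overlapped, at a log2 fold change of 0.16 (edgeR adjusted p = 0.55).

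Complex II, succinate dehydrogenase, is also an enzyme of the citric acid cycle and is encoded wholly in the nucleus. None of its 4 subunits was called, 0 had an unadjusted p under 0.05, and their median log2 fold change was 0.0001. SDHA, the flavoprotein, had 211, 201 and 193 CPM in weakly adherent cells and 217 and 197 CPM in strongly adherent cells (log2 fold change -0.036, edgeR adjusted p = 0.91). SDHB, the iron-sulfur subunit, had 102.0, 97.5 and 98.6 CPM in weakly adherent cells and 103 and 102.1 CPM in strongly adherent cells. All 3 weakly adherent libraries lay below both strongly adherent ones, but the log2 fold change was -0.043 (edgeR adjusted p = 0.88). SDHC, a membrane anchor, had a log2 fold change of 0.063 (edgeR adjusted p = 0.84). Of the coding 50-base stretches, 43.7% in SDHC and 25.4% in SDHA occur in other annotated genes, so the counts of both are uncertain. The complex as a whole summed to 439.8, 463 and 446 CPM in weakly adherent cells and 457 and 449 CPM in strongly adherent cells, a ratio of 0.993.

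In complex III, the cytochrome bc1 complex, none of the 8 subunits was called, 0 had an unadjusted p under 0.05, and the log2 fold changes ran from -0.021 to 0.17. The core proteins UQCRC1 and UQCRC2, which face the matrix, had log2 fold changes of -0.019 and -0.021 (edgeR adjusted p = 0.97 and 0.96). The Rieske iron-sulfur protein UQCRFS1 was at 0.018 (edgeR adjusted p = 0.97), with 60.8% of its coding 50-base stretches found in other annotated genes. Among the 5 subunits classed as accessory, which leaves out UQCRC1 and UQCRC2, all values were above 0, with a median of 0.057. UQCRQ, which sits at the membrane beside cytochrome b, had 107, 105 and 104 CPM in weakly adherent cells and 102.5 and 85.6 CPM in strongly adherent cells. The lowest weakly adherent library lay just above the highest strongly adherent one, and the log2 fold change was 0.17 (SE 0.085, edgeR adjusted p = 0.42). Leaving out strongly adherent cells of 15 March gave 0.046, and leaving out those of 6 March gave 0.30. UQCR10 was at 0.062 (edgeR adjusted p = 0.83). UQCRH, the hinge protein named after its values were seen, was at 0.057 (edgeR adjusted p = 0.84), and its retrocopy UQCRHL, which shares 54.5% of the coding 50-base stretches, at 0.081 (edgeR adjusted p = 0.87). Reads of UQCRH and UQCRHL cannot be separated with certainty.

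Complex V, the ATP synthase, had its highest counts in the alpha and beta subunits of the catalytic head. ATP5B, the catalytic beta subunit, had 815, 782 and 745 CPM in weakly adherent cells and 813 and 801 CPM in strongly adherent cells, a log2 fold change of -0.048 (edgeR adjusted p = 0.87). ATP5A1, the alpha subunit of the head, had 678, 632 and 614 CPM in weakly adherent cells and 646.5 and 609 CPM in strongly adherent cells (log2 fold change 0.031, edgeR adjusted p = 0.93). None of the 15 subunits was called, 0 had an unadjusted p under 0.05, 10 were above 0 and the median was 0.031. The summed level was 2949, 2884 and 2749 CPM in weakly adherent cells and 2908 and 2785 CPM in strongly adherent cells, a ratio of 1.005.

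The small membrane subunits ATP5J2 and ATP5I, which help hold the synthase in place, had the highest values of complex V. ATP5I had 60.2, 58.7 and 59.3 CPM in weakly adherent cells and 55.6 and 53.4 CPM in strongly adherent cells, with no overlap (log2 fold change 0.12, edgeR adjusted p = 0.55). ATP5J2 overlapped, at a log2 fold change of 0.15 (edgeR adjusted p = 0.53). The 2 lowest values belonged to subunits of the central stalk, ATP5D and ATP5E. ATP5D, the delta subunit, had 73.4, 69.1 and 75.6 CPM in weakly adherent cells and 83 and 74.5 CPM in strongly adherent cells (log2 fold change -0.12, edgeR adjusted p = 0.62).

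ATP5E, the epsilon subunit of the central stalk, had 4.7, 3.9 and 4.0 CPM in weakly adherent cells and 4.8 and 4.8 CPM in strongly adherent cells, the lowest counts of any subunit tested. The weakly adherent libraries lay below both others, but the log2 fold change of -0.18 had an SE of 0.17 (edgeR adjusted p = 0.75). The table also lists a read-through row, SLMO2-ATP5E, with 0 reads in all 5 libraries, and reads that fit both rows may have been left uncounted. The part of that row in the low ATP5E counts was not tested. The pseudogene ATP5EP2 had 0.706 to 1.99 CPM and is nearly the same sequence. The coding sequence of ATP5E (chr20:59025467-59032382, minus strand) is shown beside the matching stretch of ATP5EP2 (chr13:27945260-27945415, plus strand), from the GENCODE release 29 transcripts. The pair differs at 6 of 153 bases (96.1% identity). Of the coding 50-base stretches of ATP5E, 14.4% also occur in ATP5EP2, so some short reads may match both. Capitals mark the differences, which counted from 1 at the start codon, ATP5E base first, are C65T, T105C, G106A, G108A, G122A and A125G.
ATP5E: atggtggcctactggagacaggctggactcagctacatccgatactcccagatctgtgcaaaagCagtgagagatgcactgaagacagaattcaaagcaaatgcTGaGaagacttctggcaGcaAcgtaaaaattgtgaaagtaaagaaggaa
ATP5EP2: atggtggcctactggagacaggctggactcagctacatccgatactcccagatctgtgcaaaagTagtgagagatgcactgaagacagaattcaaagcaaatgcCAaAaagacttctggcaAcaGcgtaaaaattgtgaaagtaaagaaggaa

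**Figure D3:**
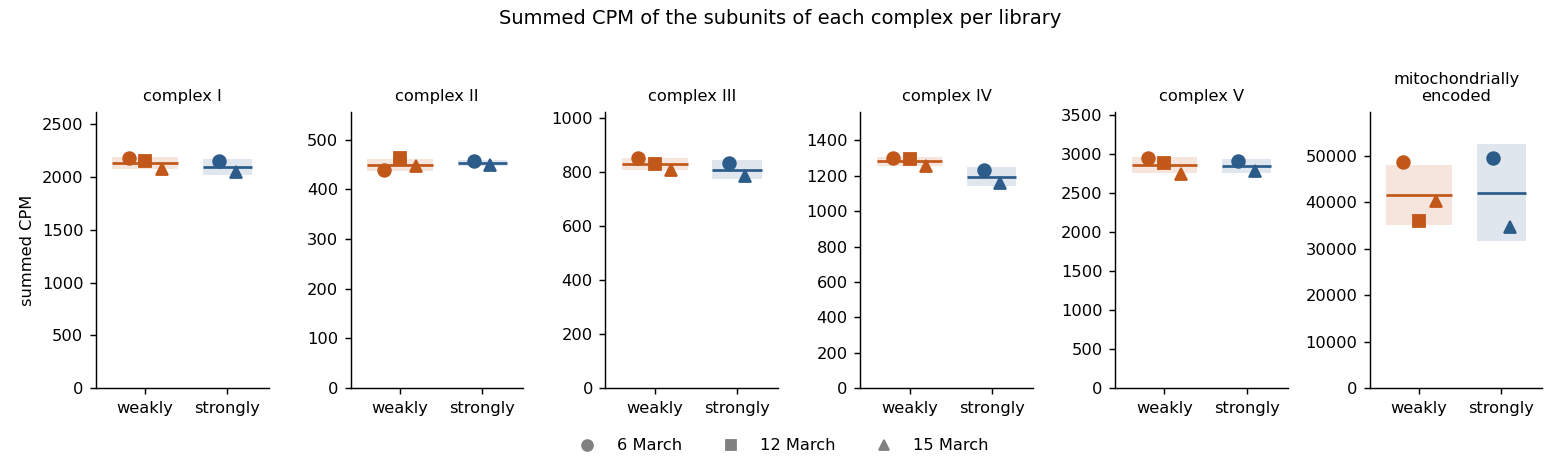
Summed TMM-scaled CPM of the nuclear subunits of each complex, and of the 13 mitochondrially encoded subunits, in each library, weakly adherent left and strongly adherent right, with a line at the mean and a band of 1 SD. Complex IV is the panel without overlap; the mitochondrially encoded sum is highest on 6 March in both populations.

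Across the complexes, 13 of the 80 tested members (16.2%) had all 3 weakly adherent libraries above both strongly adherent ones, where 15.5% of all genes tested did, so this share was near the background. They were COX7A2, NDUFA4, COX6C, COX6A1 and COX4I1 of complex IV, NDUFB1, NDUFB9, NDUFC1 and NDUFV2 of complex I, UQCRQ, UQCRH and UQCR10 of complex III, and ATP5I of complex V. The reverse order was seen in 3 members (3.75%), SDHB, NDUFB11 and ATP5E, where 14.5% of all genes tested had it. Of the 13, 12 encode accessory subunits and NDUFV2, an iron-sulfur subunit, is the exception. Accessory subunits are 52 of the 74 subunits, so most of any such group would be accessory. The share was 23.1% of the accessory and 4.55% of the 22 core subunits, and this difference was not tested.

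The 52 accessory subunits had a median log2 fold change of 0.053, with 39 above 0, and the 22 core subunits had a median of 0.020, with 13 above 0. The division runs beside gene length, since median coding length was 342 bases in accessory and 807 bases in core subunits. Over the 74 subunits, log2 fold change and log2 coding length correlated at Pearson r = -0.299 and Spearman rho = -0.402. Over 12231 genes tested with a coding length the relation had the other sign (r = 0.174, rho = 0.152). These are descriptions across genes, which share libraries and are not independent replicates. Subunits with a coding sequence under 300 bases had a median of 0.078, with 17 of 18 above 0, and ATP5E was the exception. Over all 237 genes tested that short, the median was 0.028, with 143 above 0. Subunits of at least 600 bases had a median of 0.002, with 10 of 19 above 0. Role and length move together in this family and cannot be told apart over so few genes. With each library's trend with coding length over all genes removed, the members' median was 0.033.

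**Figure D4:**
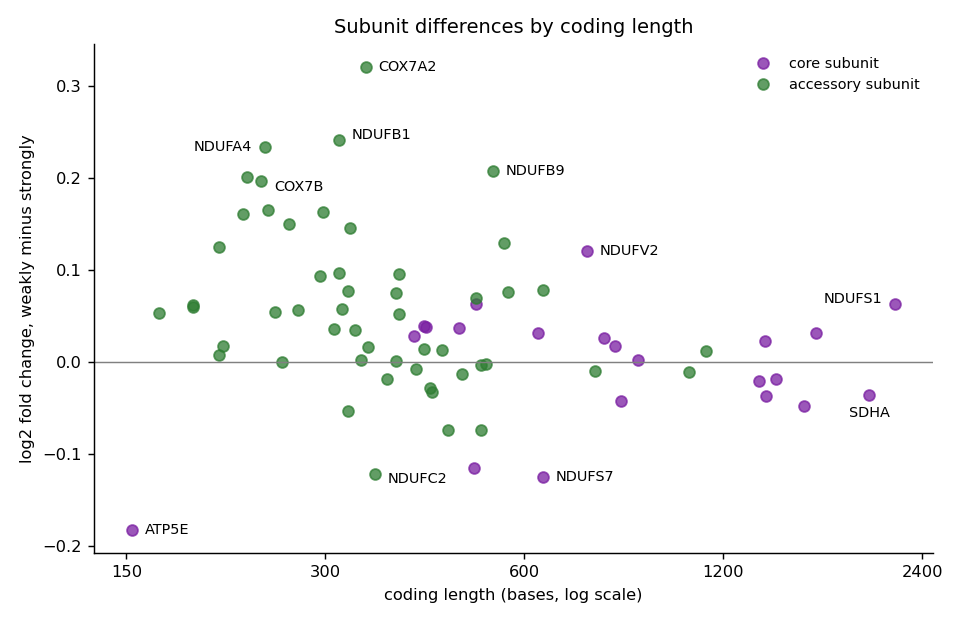
Log2 fold change of each of the 74 subunits (weakly minus strongly adherent) against its coding length on a log scale, in purple for core and green for accessory subunits. The highest values belong to accessory subunits, among them COX7A2, NDUFA4 and NDUFB1, with coding sequences of 345, 243 and 315 bases. Subunits of at least 600 bases lie between -0.13 and 0.12.

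Within the dates, the module was less uniform than the pooled values. On 6 March 49 of 74 subunits, and on 15 March 41 of 74, were higher in the weakly adherent library. Over all 80 tested members, 38 (47.5%) had the same sign on both dates, against 62.8% of all genes tested. Complex IV had 7 of 11 subunits higher in the weakly adherent library on both dates and 0 lower on both. Its share with the same sign on both dates, 63.6%, was near the 62.8% of all genes tested. Complex I had 8 of 36 higher on both dates and 5 lower on both, with a median log2 difference of 0.052 on 6 March and -0.012 on 15 March. With the date as a block in edgeR, 2 of 80 members (COX7A2 and NDUFA4) were called higher and 1 (NDUFC2) lower, where 6.2% of all genes were called higher and 5.28% lower. That fit has 1 residual degree of freedom and gives the weakly adherent library of 12 March no weight for adhesion.

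Some members differed more between dates than between populations. In a comparison added after the data were seen, 15 March was set against 6 March over the 4 libraries of those dates, with adhesion as a covariate. This fit leaves 1 residual degree of freedom, so its p-values rest largely on a spread estimated across genes. It called 3 of the 80 members higher on 15 March (NDUFC2, NDUFA5 and SDHD) and 2 lower (UQCRC1 and COX5A), where 6.72% of all genes were called higher and 2.57% lower. The median log2 difference of the members was -0.083, against 0.0022 for all genes, and 58 of the 74 subunits were below 0.

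NDUFC2, an accessory subunit of the complex I membrane arm and the one with the lowest counts of that complex, had 10.9, 23.1 and 22.4 CPM in weakly adherent cells of 6, 12 and 15 March and 15.7 and 25.1 CPM in strongly adherent cells of 6 and 15 March. Both libraries of 6 March were the low ones. The log2 difference of 15 minus 6 March was 0.84 (SE 0.11, edgeR adjusted p = 1.2e-12), with 1.03 in weakly and 0.68 in strongly adherent cells. Between populations the log2 fold change was -0.12 (edgeR adjusted p = 0.95) without the date and -0.32 (adjusted p = 0.027) with the date block. With the date as a random block in limma-voom it was -0.24 (adjusted p = 0.67). In edgeR with no block, leaving out weakly adherent cells of 6 March gave 0.15 and leaving out strongly adherent cells of 15 March gave 0.26. Its sign in the fit without the date therefore rests on single libraries, and leaving out 1 library also unbalances the dates. Within dates the weakly adherent library was lower both times, with log2 differences of -0.52 on 6 March and -0.17 on 15 March. The gene (chr11:78068304-78080219, minus strand, GRCh38) overlaps a read-through row, NDUFC2-KCTD14, which is listed at 0 reads in all 5 libraries, and reads that fit both rows may have been left uncounted. The part of that overlap in the difference was not tested.

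NDUFA5, an accessory subunit of the matrix arm named after its values were seen, had 22.7, 36.2 and 32.2 CPM in weakly adherent cells and 25 and 35 CPM in strongly adherent cells. Its lowest libraries were again those of 6 March, and its log2 difference between the dates was 0.49 (SE 0.091, edgeR adjusted p = 6.7e-06). SDHD, the second membrane anchor of complex II, had 64.5, 96.1 and 89 CPM in weakly adherent cells and 76.8 and 85.4 CPM in strongly adherent cells. The log2 difference between dates was 0.30 (SE 0.072, edgeR adjusted p = 8.4e-04), with 0.46 in weakly and 0.15 in strongly adherent cells. SDHD is the subunit with the most sequence in common with other annotated genes, 66.6% of its coding 50-base stretches, and for NDUFA5 the share is 25.8%, so the counts of both are uncertain. Between populations their log2 fold changes were 0.016 for NDUFA5 (edgeR adjusted p = 0.99) and 0.037 for SDHD (edgeR adjusted p = 0.97). With the date block the signs turned, to -0.13 for NDUFA5 and -0.091 for SDHD (edgeR adjusted p = 0.45 and 0.51). On 6 and then 15 March the log2 differences, weakly minus strongly adherent, were -0.14 and -0.12 for NDUFA5 and -0.25 and 0.060 for SDHD.

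The same 3 genes were called when the libraries of 12 and 15 March were set together against those of 6 March over all 5 libraries (3 higher and 0 lower; 5.44% and 1.11% of all genes). There the log2 differences were 0.88 for NDUFC2, 0.54 for NDUFA5 and 0.36 for SDHD, at edgeR adjusted p of 3.0e-06, 1.3e-04 and 0.0052. UQCRC1 and COX5A, lower on 15 March by a log2 difference of -0.20 each in the comparison of 4 libraries (edgeR adjusted p = 0.043 and 0.049), did not pass with 5, at log2 differences of -0.18 each (edgeR adjusted p = 0.076 and 0.077).

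**Figure D5:**
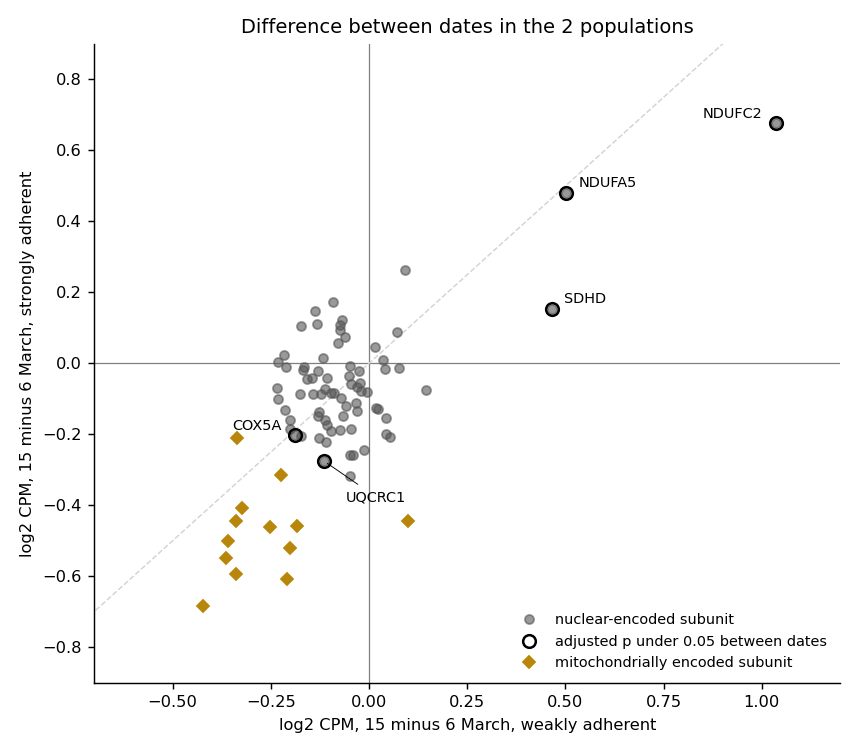
Log2 CPM difference of 15 minus 6 March in weakly adherent cells (x axis) and in strongly adherent cells (y axis) for the 74 nuclear subunits (grey), with rings for an adjusted p under 0.05 between dates, and for the 13 mitochondrially encoded subunits (gold). NDUFC2, NDUFA5 and SDHD lie at the upper right, and the gold points lie low in strongly adherent cells, with 1 of them right of 0.

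The 13 subunits encoded by mitochondrial DNA also followed the date. Summed, they reached 48630, 35990 and 40210 CPM in weakly adherent cells of 6, 12 and 15 March and 49510 and 34630 CPM in strongly adherent cells of 6 and 15 March. None was called between populations, where ND6 alone had an unadjusted p under 0.05, but 12 of 13 were called lower on 15 than on 6 March, ND3 being the exception, where 2.57% of all genes were. ND1, a membrane core subunit of complex I, had the largest such difference, -0.56 (edgeR adjusted p = 2.0e-11). ND6 had a log2 fold change between populations of 0.28 (edgeR adjusted p = 0.23, and 0.0011 with the date block), and ND4L of -0.25 (edgeR adjusted p = 0.44). ND6 lies on the opposite strand from the other mitochondrial genes for subunits, and the strand setting of the counting is not given in the sources used here. With the date block 2 of 13 were called higher, ND6 and COX3, where 6.2% of all genes were.

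Other genes of the pathway were taken from lists. None of 54 assembly factors was called by edgeR, limma-voom or DESeq2, and 0 had an unadjusted p under 0.05; 26 were above 0 and their median was -0.0076. COA1, a complex I and IV assembly factor, had 56.9, 53.2 and 50.8 CPM in weakly adherent cells and 50.3 and 43.0 CPM in strongly adherent cells (log2 fold change 0.20, edgeR adjusted p = 0.36). COX20, a chaperone of the complex IV subunit COX2, was at 0.23 (edgeR adjusted p = 0.37). Of 6 subunits or carriers whose symbols fall outside the rule, 0 were called, and USMG5 alone had an unadjusted p under 0.05. The small ATP synthase proteins USMG5 and C14orf2 had log2 fold changes of 0.20 and 0.19 (edgeR adjusted p = 0.31 and 0.47), and C14orf2 reached an adjusted p of 0.019 with the date block. CYCS, which encodes cytochrome c and was named after its values were seen, had a log2 fold change of 0.0062 between populations (edgeR adjusted p = 1.00) and was higher on 15 March by 0.37 on the log2 scale (edgeR adjusted p = 6.2e-06).

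Among 14 regulators of respiratory genes, 0 were called, 7 were above 0, and NRF1 alone had an unadjusted p under 0.05. NRF1, the factor whose palindrome was searched above, had 33.0, 34.7 and 30.4 CPM in weakly adherent cells and 26.8 and 27.3 CPM in strongly adherent cells. Its libraries did not overlap, and the log2 difference was 0.27 with an SE of 0.094 (edgeR adjusted p = 0.18). TEFM, the mitochondrial transcription elongation factor, was at 0.21 (edgeR adjusted p = 0.48). The 16 citric acid cycle genes gave 0 calls, and 14 of them were below 0, with a median of -0.086. OGDH alone had an unadjusted p under 0.05. This gene, the first component of the 2-oxoglutarate dehydrogenase complex, had 218, 221 and 235 CPM in weakly adherent cells and 249 and 252 CPM in strongly adherent cells (log2 fold change -0.16, edgeR adjusted p = 0.33). DLST, another component of that complex, was at -0.10 (edgeR adjusted p = 0.59).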

How the data were processed

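Total RNA of 5 MDA-MB-231 samples was sequenced as 50 bp single-end reads after a stranded TruSeq preparation, per the labels. Build hg19 and the tools STAR, HTSeq, cutadapt, FastQC and DESeq2 are named in the submitters' processing notes; for versions, annotation and strand setting the entry is: not given in the sources used here. The authors deposited raw counts per gene symbol and log2 values of normalized counts. HTSeq's rows of unassigned reads stayed out of all library sizes: of all rows, 6.49% to 8.07% lay outside genes, 1.10% to 1.16% were ambiguous and 16.0% to 16.8% not unique.

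On the deposited counts edgeR 4.0.16 (R 4.3.3) was run (TMM, filterByExpr, robust quasi-likelihood F test, adjusted p under 0.05, 3 residual degrees of freedom); the biological coefficient of variation was 7.91%. Intervals are from limma 3.58.1 (voom). Differences of single libraries are of log2 CPM with 0.5 reads added. Alternatives used DESeq2 1.42.0, other scalings, filters, the deposited log2 values (pseudocount 1 or 5), the date block, a coding-length offset (spline with 5 degrees of freedom, lengths for 92.0% of tested genes from GENCODE release 29) and each library left out. The fits were tested on simulated data. Figures were drawn with matplotlib 3.10.9.

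The block uses the dates in the titles. Deviations from group means correlated at 0.316 between the libraries of 6 March and 0.193 between those of 15 March; that of weakly adherent 12 March with strongly adherent 15 March was 0.148. Because a group of 2 has equal and opposite deviations, the correlations depend on one another. Replicates of a group differed by more than sampling noise: chi-square over its degrees of freedom was 7.49 to 12.6.

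Members and lists were chosen with earlier results of these data known. Named are members called, the 2 with the smallest p in each direction and those with the highest and lowest counts per complex, catalytic and anchor subunits, isoforms, and the 2 genes with the smallest p of each list; other named genes were chosen after their values were seen. The values of 1 subunit that the rule names are not reported here and it is not drawn in the plot by complex, though it stays in all counts and sums.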

Additional observations from a re-analysis of the deposited data

Results flagged for a closer look

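In 9 subunits the libraries of 6 and of 15 March differed in opposite directions between weakly and strongly adherent cells, each difference larger than 2 counting standard errors. Replicates of a group differed by more than counting noise, so passing this bound does not set these subunits apart. With 1 library per population and date, the difference between the dates was not tested. As log2 differences, weakly minus strongly adherent, on 6 and then 15 March, 4 subunits were higher first: ATP5G2 at 0.11 and -0.093, NDUFA6 at 0.14 and -0.13, NDUFA9 at 0.11 and -0.13 and UQCRFS1 at 0.14 and -0.11. The other 5 were lower first: COX8A at -0.11 and 0.12, NDUFA11 at -0.13 and 0.13, NDUFS8 at -0.090 and 0.17, NDUFV1 at -0.13 and 0.088 and UQCRC1 at -0.080 and 0.082.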

How the results depend on the processing

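The count of members called higher was 1, and 1 under 9 of the alternatives run on all 5 libraries. These 9 include the main fit counted over the subunits only. It was 0 with upper-quartile scaling, 0 with the coding-length trend removed, 2 with the date as a replicate block in edgeR and 2 with the date as a random block in limma-voom. Leaving out each library in turn gave 0 every time. The count called lower was 0, and 1 with the date block and 1 with the block and the length trend together. Between dates, the count called lower was 2 over 4 libraries and 0 over all 5. The median log2 fold change of the members was 0.035, and 0.017 to 0.069 over alternatives. Their summed ratio was 1.02, and 0.998 to 1.05 over alternatives. Both were highest without strongly adherent cells of 6 March, and the ratio was lowest without those of 15 March. Among 48 named genes, 46 of 816 values under alternatives had the other sign, none of them called. Groups of 3 and 2 libraries limit what can be called, and counts of subunits that share sequence with other genes are uncertain.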
